A study of Mus musculus with 20 samples.

Results

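The response of the mouse lung to an extract of barn dust was followed in animals that had been fed a diet rich in docosahexaenoic acid (DHA, a long-chain omega-3 fatty acid). Mice on the DHA diet that received hog dust extract (HDE) numbered 7, and mice on the same diet that received saline numbered 3, so that 10 of the 20 mice of the series entered the comparison, chosen by the diet and exposure given in their sample names. HDE is a sterile-filtered suspension of dust that settles in swine confinement buildings, and carries bacterial and fungal wall material, with endotoxin among it. All 10 were male C57BL/6J mice, 5 to 8 weeks old, which ate a purified AIN-93G-based diet with high-oleic safflower oil and DHASCO oil (39.2% DHA), about 1.4% of calories as DHA, for 4 weeks. They then received 50 µL of 12.5% HDE or of saline once through the nose, and the left lung was taken at 5 h, after the airways had been lavaged. As both groups ate the DHA diet, the comparison gives the effect of HDE on that diet and not the effect of the diet. The lungs were drawn at random from 3 experimental sets and which mouse came from which set is not stated in the labels or methods, so that any difference between sets remains in the spread between mice. Replicate numbers only tell the mice of a group apart, and the values of the saline mice are given in the order of replicates 1, 2 and 3.

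When a lung meets microbial dust, pattern recognition receptors on epithelium and alveolar macrophages signal through NF-κB, a family of transcription factors held in the cytoplasm by inhibitor proteins. NF-κB turns on genes for chemokines and cytokines, which draw neutrophils and monocytes from the blood, and also genes for its own inhibitors. Type I interferon and JAK-STAT signalling add a further set of genes, and resolving lipid mediators made from DHA belong to the processes that end such a response.

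RNA was counted on the NanoString mouse Immunology panel, in which barcoded probes are counted one by one without amplification. Raw counts over the 547 endogenous probes summed to 141852 to 684074 (median 264390) per mouse after HDE and to 123536 to 486020 (median 185175) after saline. A scaled count is the raw count after each lane was brought to the same geometric mean of the housekeeping genes Oaz1, Ppia, Rpl19 and Eef1g. After this scaling the group means of those 4 genes differed by -0.25 (Oaz1) to 0.13 (Rpl19) on the log2 scale, HDE over saline, while the 10 other housekeeping probes differed by -0.49 (Sdha) to 1.01 (Polr1b). Between 414 and 475 probes lay over their lane's background, the mean plus 2 SD of its 8 negative probes, in HDE mice and between 354 and 474 in saline mice. The lanes came from 2 nCounter runs, told apart by identifiers in the sample names, with 4 HDE and 2 saline mice in run 1 and 3 HDE mice and 1 saline mouse in run 2. Of the markers of lung tissue, Cxcl15, a chemokine of lung epithelium, stood at 10333 to 20972 scaled counts after HDE and 14903 to 20783 after saline.

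Relative to the housekeeping genes, more lung transcripts were higher than lower after HDE. In 351 genes the scaled count averaged 82 or more in the 10 mice, and 108 of these were higher (30.8%) and 5 lower (1.42%) after HDE with an adjusted p below 0.05, by edgeR's quasi-likelihood test with Benjamini-Hochberg adjustment. The rise was over 2-fold in 104 of the 108 genes, over 4-fold in 50 and over 10-fold in 18. Chemokines (Ccl2, Cxcl10, Ccl20, Cxcl3, Cxcl1, Ccl3, Ccl7, Ccl4) made up 8 of these 18, members of the interleukin-1 family 3 (Il1b, Il1a, Il1r2), and the rest were Clec4e, Cd14, Ptafr, S100a8, Tnf, S100a9 and Tnfaip3. All 7 HDE mice lay above all 3 saline mice in 94 of the 351 genes (26.8%) and below them in 10 (2.85%), and in 86 of the 108 higher genes the groups did not overlap. At an unadjusted p up to 0.05, the level used in the study's methods, 134 genes were higher (38.2%) and 9 lower (2.56%). All 108 higher genes were over the lane background in all 7 HDE mice, but 24 of them were over it in fewer than 3 saline mice and 12 in 1 or 0, and their folds are set against counts near background. The filter took in 49 genes whose saline mean was under 82, 33 of them among the 108. A gene of this kind was tested because it was high after HDE, so its call carries less weight as a count. The same holds below for the counts and medians of lists that contain such genes.

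**Figure D1:**
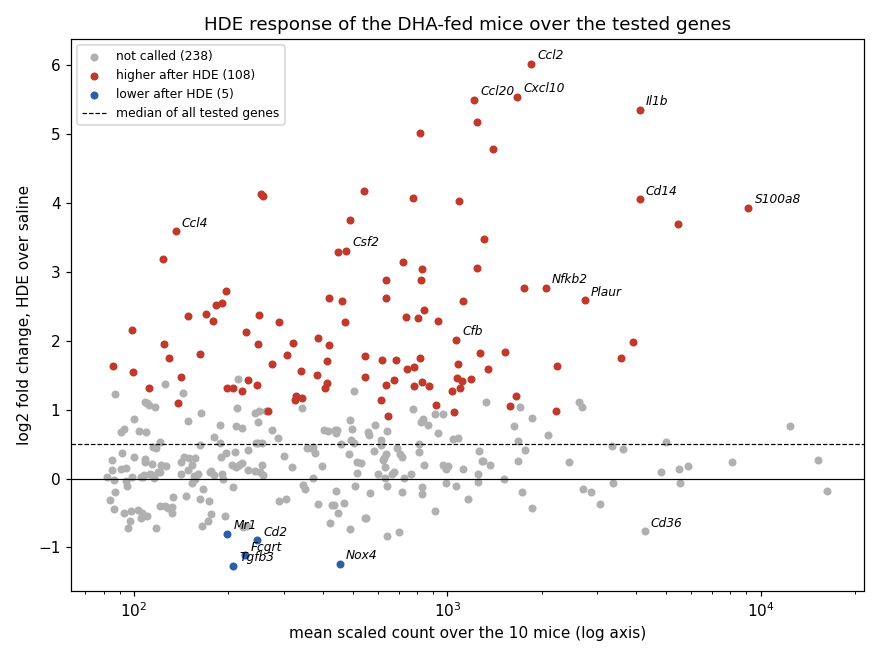
Log2 fold change, HDE over saline on the DHA diet, against the mean scaled count over the 10 mice (log axis), 1 point per tested gene. The 108 higher genes in red reach a log2 fold change of 6.02 (Ccl2) and the 5 lower genes in blue lie between -0.80 and -1.27, with the dashed line at the median of all tested genes, 0.50, under the housekeeping scaling (-0.15 under TMM).

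The direction of most of the smaller changes rested on the scaling. Relative to the 4 housekeeping genes the median log2 fold change of the 351 genes was 0.50, with 274 genes above 0 and 77 below. Scaling by TMM, which assumes that most of the panel does not change, moved the log2 fold change of the median gene by -0.632 and set the median at -0.15. It gave 77 higher and 62 lower genes, all 77 of them among the 108. A second scaling of that kind, by the size factors of DESeq2, gave 93 higher and 72 lower genes, and scaling by all 14 housekeeping probes gave 117 and 10. The same 77 genes were higher under all 4 scalings. Gene lists are therefore read below against the median of 0.50, and a list whose median turned below 0 under TMM is marked as such. Counts of higher genes in a list are to be set against the 30.8% of all tested genes that were higher. Where no tool or scaling is named, a gene passed or did not pass by edgeR with the 4 housekeeping genes, and some genes that did not pass were lower under TMM.

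The number of calls also rested on single saline mice, since there were only 3. Without saline replicate 3 there were 57 higher genes and without saline replicate 1 there were 65, and leaving out each mouse in turn gave 1 to 5 lower genes. In run 1 alone 72 genes were higher and 2 lower, and in run 2 alone, with a single saline mouse, 30 and 1.

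Of the gene lists, that of chemokines for monocytes had the highest median log2 fold change. Ccl2, the main attractant of CCR2-bearing monocytes, stood at 1035 to 4476 scaled counts (median 2454) after HDE, against 30.6, 71.9 and 23.1 after saline. The least HDE mouse was thus well above the highest saline mouse, and Ccl2 was 64.9-fold higher, a log2 change of 6.02 (standard error 0.64, adjusted p = 1.99e-05). Only 1 saline mouse was over the lane background for Ccl2, so that this fold is set against counts near background, and with the background subtracted the log2 change was 8.35. Ccl3, a chemokine made by macrophages, stood at 783 to 4566 scaled counts (median 1825) after HDE, against 67.4, 119 and 32.2 after saline, and Ccl7, a further CCR2 ligand, at 145 to 622 scaled counts (median 394) after HDE, against 18.4, 39 and 7.96 after saline. Both rose with no overlap of the groups, by 4.78 for Ccl3 (adjusted p = 1.81e-04) and by 4.13 for Ccl7 (adjusted p = 2.87e-04) on the log2 scale. For Ccl7, as for Ccl2, 1 saline mouse was over the lane background. Ccl4 was at 47.4 to 340 after HDE and over the lane background in none of the saline mice, whose counts of 12.3, 32.9 and 6.37 are an upper level for its transcript. Of the 8 tested monocyte-attracting CC chemokines 6 were higher and 0 lower, with a median log2 fold change of 3.32. Ccl2, Ccl3, Ccl4, Ccl7 and Ccl12 had saline means under 82 and were tested because of their HDE counts. The count and median of this list therefore carry less weight. Ccl9 rose by 3.06 and Ccl12 by 1.75, while Ccl5 and Ccl6 did not pass the test.

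Of the chemokines for neutrophils Cxcl3 and Cxcl1 rose, and Ppbp and Cxcl15 did not pass the test. Cxcl3, a ligand of CXCR2, stood at 736 to 3352 scaled counts (median 1752) after HDE, against 24.5, 121 and 7.96 after saline. Cxcl1, the mouse counterpart of the human GRO chemokines, stood at 230.0 to 2799 scaled counts (median 624) after HDE, against 22.1, 67.8 and 21.5 after saline. Both rose, Cxcl3 by 5.18 (adjusted p = 2.87e-04) and Cxcl1 by 5.02 (adjusted p = 7.13e-04) on the log2 scale, and in neither did the groups overlap. Over the lane background were 2 saline mice for Cxcl3 and 1 for Cxcl1. With the background subtracted the log2 changes were 7.45 for Cxcl3 and 7.26 for Cxcl1. Neither Ppbp, a chemokine of platelets (log2 fold change 0.00), nor Cxcl15 (-0.18) passed the test, so that 2 of the 4 genes of this list were higher and the median was 2.51. Cxcl3 and Cxcl1 had saline means under 82 and were tested because of their HDE counts.

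Among the chemokines for lymphocytes and dendritic cells 5 of 8 rose and 0 fell, with a median log2 fold change of 2.26. Of these, Cxcl10 and Ccl20 had saline means under 82 and were tested because of their HDE counts. Cxcl10, an interferon-induced ligand of CXCR3 on activated T cells, stood at 549.9 to 4120 scaled counts (median 2135) after HDE, against 47.8, 103 and 8.75 after saline. Ccl20, which draws CCR6-bearing dendritic cells and lymphocytes and is made by airway epithelium, stood at 485 to 3406 scaled counts (median 1630) after HDE, against 31.9, 80.1 and 9.15 after saline. The groups lay apart in both, with a log2 change of 5.54 (standard error 0.88, adjusted p = 2.89e-04) for Cxcl10 and of 5.50 (standard error 0.81, adjusted p = 1.90e-04) for Ccl20. For Ccl20 too 1 saline mouse was over the lane background, and with the background subtracted the log2 change was 9.97 for Ccl20 and 8.42 for Cxcl10. Ccl22, a ligand of CCR4, rose by 2.89, Ccl19, a ligand of CCR7, by 2.57 and Cxcl13, the B cell chemokine, by 1.95. Cxcl12, a homeostatic chemokine of stroma, had 224.5 to 743 scaled counts after HDE, against 780, 587 and 514 after saline, which did not pass by edgeR with the housekeeping genes and was lower under TMM (-0.87) and by DESeq2 with its own size factors (-0.82). Of 7 tested chemokine receptors 2 were higher, against 30.8% over all genes. These were Cxcr2, the receptor for CXCL1 and CXCL3 on neutrophils, at a log2 fold change of 2.55, and Ccrl2, an atypical receptor that presents chemerin, at 1.70. The call of Ccrl2 was lost under TMM and without any 1 of the 3 saline mice.

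**Figure D2:**
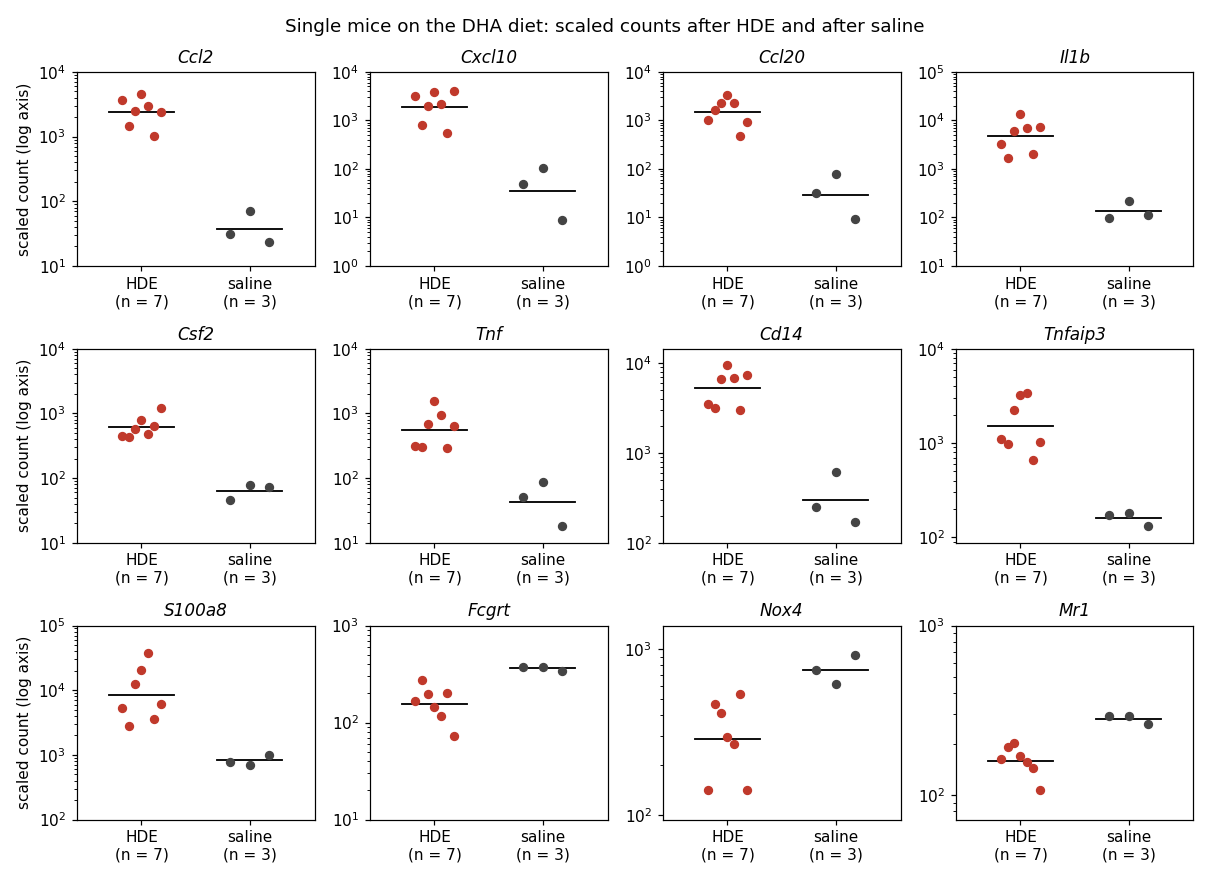
Scaled counts of single mice (log axes) for 9 higher and 3 lower genes, HDE on the left and saline on the right of each panel. Points are mice and bars are geometric means, and the groups do not overlap in any of the 12 panels. The genes were picked for display. Over all 351 tested genes the HDE mice lay wholly above the saline mice in 94 and wholly below in 10.

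Promoters of 5 of the higher genes are shown because they hold the letters of an NF-κB site close to the gene start. RefSeq promoters (build GRCm38.p6), 250 bases before to 50 bases after a gene start, were matched by symbol for 258 of the 351 tested genes and searched on both strands for GGGNNNTTCC, which is given in capitals. In each, the letters run along the gene's own strand, and a base before the gene start has a negative position.
Ccl20 (chr1:83116516-83116815, + strand): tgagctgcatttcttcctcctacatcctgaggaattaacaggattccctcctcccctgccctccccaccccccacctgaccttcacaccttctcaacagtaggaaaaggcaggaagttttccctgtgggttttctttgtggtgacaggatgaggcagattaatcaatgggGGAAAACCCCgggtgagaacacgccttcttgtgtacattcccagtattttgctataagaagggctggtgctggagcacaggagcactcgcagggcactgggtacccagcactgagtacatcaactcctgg
Cxcl3 (chr5:90785851-90786150, + strand): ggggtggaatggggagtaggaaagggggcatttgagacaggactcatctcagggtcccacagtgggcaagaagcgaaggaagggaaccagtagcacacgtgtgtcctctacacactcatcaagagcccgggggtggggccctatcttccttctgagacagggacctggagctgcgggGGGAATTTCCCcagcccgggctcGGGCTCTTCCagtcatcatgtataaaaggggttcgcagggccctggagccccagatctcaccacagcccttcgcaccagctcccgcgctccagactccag
Cxcl10 (chr5:92348840-92349139, - strand): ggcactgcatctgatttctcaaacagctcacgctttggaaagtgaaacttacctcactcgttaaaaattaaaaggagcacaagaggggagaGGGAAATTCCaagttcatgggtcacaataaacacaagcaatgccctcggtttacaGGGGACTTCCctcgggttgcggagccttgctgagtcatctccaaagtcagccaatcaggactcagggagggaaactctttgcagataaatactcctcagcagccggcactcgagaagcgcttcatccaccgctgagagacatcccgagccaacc
Cxcl1 (chr5:90890995-90891294, + strand): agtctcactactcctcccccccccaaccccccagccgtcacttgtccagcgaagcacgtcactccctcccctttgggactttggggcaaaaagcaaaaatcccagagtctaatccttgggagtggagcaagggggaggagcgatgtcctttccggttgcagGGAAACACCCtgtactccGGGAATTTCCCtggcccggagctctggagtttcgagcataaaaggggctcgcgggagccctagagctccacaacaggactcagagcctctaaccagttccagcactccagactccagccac
Nfkbia (chr12:55492598-55492897, - strand): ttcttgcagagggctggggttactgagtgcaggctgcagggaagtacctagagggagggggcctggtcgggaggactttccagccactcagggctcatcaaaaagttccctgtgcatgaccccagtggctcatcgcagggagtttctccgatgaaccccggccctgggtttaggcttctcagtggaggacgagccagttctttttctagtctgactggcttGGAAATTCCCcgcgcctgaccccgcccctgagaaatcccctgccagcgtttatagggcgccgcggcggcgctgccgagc
The match began at -80 in Ccl20 and at -29 in Nfkbia, both on the opposite strand, and at -159 and -104 in Cxcl10. In Cxcl3 matches began at -73, -72 and -50 and in Cxcl1 at -89, -71 and -70, where the pairs 1 base apart are overlapping matches on the 2 strands of the same site. A match stood in at least 1 promoter of 20 of the 86 higher genes with a promoter in the table (23.3%), of 34 of the 258 tested genes (13.2%) and of 1704 of all 27025 genes in the table (6.31%). TTTCNNTTTC, the core of an interferon-stimulated response element, stood in 9.30%, 8.14% and 3.99% of the same genes. These are matches of letters, and binding was not measured.

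Interleukin-1 genes rose at the level of the ligands and of their natural inhibitors. Il1b, which encodes the fever-inducing interleukin-1β, stood at 1714 to 13220 scaled counts (median 6143) after HDE, against 99.3, 216 and 113 after saline. Il1a, the alarmin of the same family, stood at 560.1 to 2442 scaled counts (median 888) after HDE, against 73.6, 107 and 17.1 after saline. Both rose without overlap, Il1b by 5.36 (41.0-fold, adjusted p = 1.81e-04) and Il1a by 4.08 (adjusted p = 2.87e-04) on the log2 scale. Il1rn, the antagonist that occupies the receptor, stood at 411 to 1965 scaled counts (median 946) after HDE, against 102, 139.6 and 95.1 after saline, and Il1r2, a decoy receptor, at 115 to 1012 scaled counts (median 176) after HDE, against 24.5, 32.9 and 8.75 after saline. The antagonist rose by 3.14 and the decoy by 4.11, and Il18rap, a chain of the interleukin-18 receptor found on neutrophils and lymphocytes, by 2.28. Of the 13 tested genes of the list these 5 were higher, against 30.8% over all genes, and 0 lower. Il1a, Il1r2 and Il18rap had saline means under 82 and were tested because of their HDE counts. The signalling receptor chains Il1r1 and Il1rap, Casp1 of the inflammasome, and Il18 and Il33 were among the 8 that did not pass, and the list's median was 0.68 (-0.02 under TMM).

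Of 30 cytokine and growth factor genes on the panel only 7 reached the count minimum, and 5 of these rose. Csf2, which encodes GM-CSF and acts on neutrophils and alveolar macrophages, stood at 437 to 1202 scaled counts (median 568) after HDE, against 45.4, 78 and 73.2 after saline. Its HDE values spanned less than 3-fold, and its log2 fold change was 3.31 (standard error 0.45, adjusted p = 1.81e-04). Tnf stood at 295 to 1575 scaled counts (median 637) after HDE, against 51.5, 86.2 and 17.9 after saline, with a log2 change of 3.75 (standard error 0.69, adjusted p = 7.44e-04). Il6, a driver of the acute phase, was at 100.3 to 459 scaled counts (median 259.8) after HDE, against 29.4, 88.3 and 8.75 after saline, and the groups did not overlap. Lif, a cytokine of the interleukin-6 family, rose by 2.38 although 1 HDE mouse at 96.9 lay below the saline mouse at 125, and Csf1, the growth factor of macrophages, by 1.82 with a saline mouse at 912 above the lowest HDE mouse at 458. The median of the list was 2.38, but Csf2, Tnf, Il6 and Lif had saline means under 82 and were tested because of their HDE counts. Under TMM, and without any 1 of saline replicates 1 and 3 and HDE replicates 3, 4 and 5, Csf1 no longer passed.

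Inhibitors and subunits of NF-κB were among the genes that rose. Tnfaip3, which encodes the deubiquitinase A20 that shuts off the pathway, stood at 669 to 3377 scaled counts (median 1103) after HDE, against 172, 183 and 132 after saline. Bcl3, an atypical inhibitor protein that acts in the nucleus, stood at 366 to 1184 scaled counts (median 518) after HDE, against 72.3, 103 and 17.9 after saline. The log2 fold change was 3.47 (standard error 0.59, adjusted p = 4.82e-04) for Tnfaip3 and 3.28 (standard error 0.59, adjusted p = 6.76e-04) for Bcl3, with no overlap of the groups. Nfkbia, the inhibitor IκBα, stood at 959.5 to 3854 scaled counts (median 2777) after HDE, against 365, 404 and 268 after saline, and the transcription factor subunits Nfkb2 at 1365 to 4132 scaled counts (median 3122) after HDE, against 479, 526 and 218 after saline and Relb at 766 to 2326 scaled counts (median 1556) after HDE, against 278, 382 and 99.1 after saline. They rose by 2.77, 2.77 and 2.57 on the log2 scale. Together with the smaller rises of Nfkb1, Rela, Nfkbiz and Ikbke, 9 of 20 tested genes of the pathway were higher and 0 lower, and the median was 0.84. Bcl3 had a saline mean under 82 and was tested because of its HDE counts. The kinase genes Ikbkb, Chuk and Ikbkg and the adaptors Traf1 to Traf6 on the panel lay between 0.06 and 0.98 and did not pass.

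Of the genes that sense bacterial products Cd14 and Tlr2 rose and Tlr4 did not pass the test. Cd14, which hands lipopolysaccharide to Toll-like receptor 4, stood at 3029 to 9634 scaled counts (median 6588) after HDE, against 250.1, 616 and 171 after saline, 16.6-fold higher after HDE with a log2 change of 4.06 (standard error 0.58, adjusted p = 1.81e-04). Tlr2, the receptor for bacterial lipoproteins, stood at 387 to 1691 scaled counts (median 813) after HDE, against 147, 144 and 123 after saline. It rose by 2.62, and the groups did not overlap. Nod2, a sensor of muramyl dipeptide, rose by 2.36, Myd88, the adaptor of most Toll-like receptors, by 1.72, and the kinases Irak2 and Irak3 also rose. Tlr4 itself was at a log2 fold change of 0.12 and its partner Ly96 at -0.03. Of the 15 tested genes 6 were higher, against 30.8% over all genes, and 9 did not pass, with a list median of 0.38 (-0.25 under TMM). Nod2 had a saline mean under 82 and was tested because of its HDE counts.

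Among the C-type lectins and scavenger receptors of myeloid cells 7 of 9 tested genes were higher, 0 lower and the median was 1.55. Clec4e, Msr1 and Trem1 were among those with saline means under 82, tested because of their HDE counts. Clec4e, the receptor Mincle for glycolipids of fungi and mycobacteria, stood at 418 to 1511 scaled counts (median 543) after HDE, against 29.4, 76 and 23.5 after saline. Marco, a scavenger receptor of alveolar macrophages that binds bacteria and particles, stood at 364 to 1297 scaled counts (median 499) after HDE, against 109, 166 and 109 after saline. The increases were 4.18 (standard error 0.61, adjusted p = 1.90e-04) for Clec4e and 2.27 (standard error 0.46, adjusted p = 0.00158) for Marco. Msr1, a scavenger receptor of macrophages, was at 84.8 to 228 scaled counts (median 123) after HDE, against 23.3, 37 and 27.1 after saline, with 1 saline mouse over the lane background, and rose by 2.16. Trem1, an amplifier of inflammation on neutrophils and monocytes, rose by 2.51. For Clec4e and Trem1 too 1 saline mouse was over the lane background. Cd36, the scavenger receptor for oxidised lipids and long-chain fatty acids, was among the 2 that did not pass, at 1199 to 4688 scaled counts (median 3641) after HDE, against 5944, 5347 and 6679 after saline. All 7 HDE mice were below the 3 saline mice, and its log2 fold change was -0.77 (standard error 0.37, adjusted p = 0.133) by edgeR with the housekeeping genes. Under TMM (-1.42) and by DESeq2 with its own size factors (-1.38) Cd36 was called lower.

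**Figure D3:**
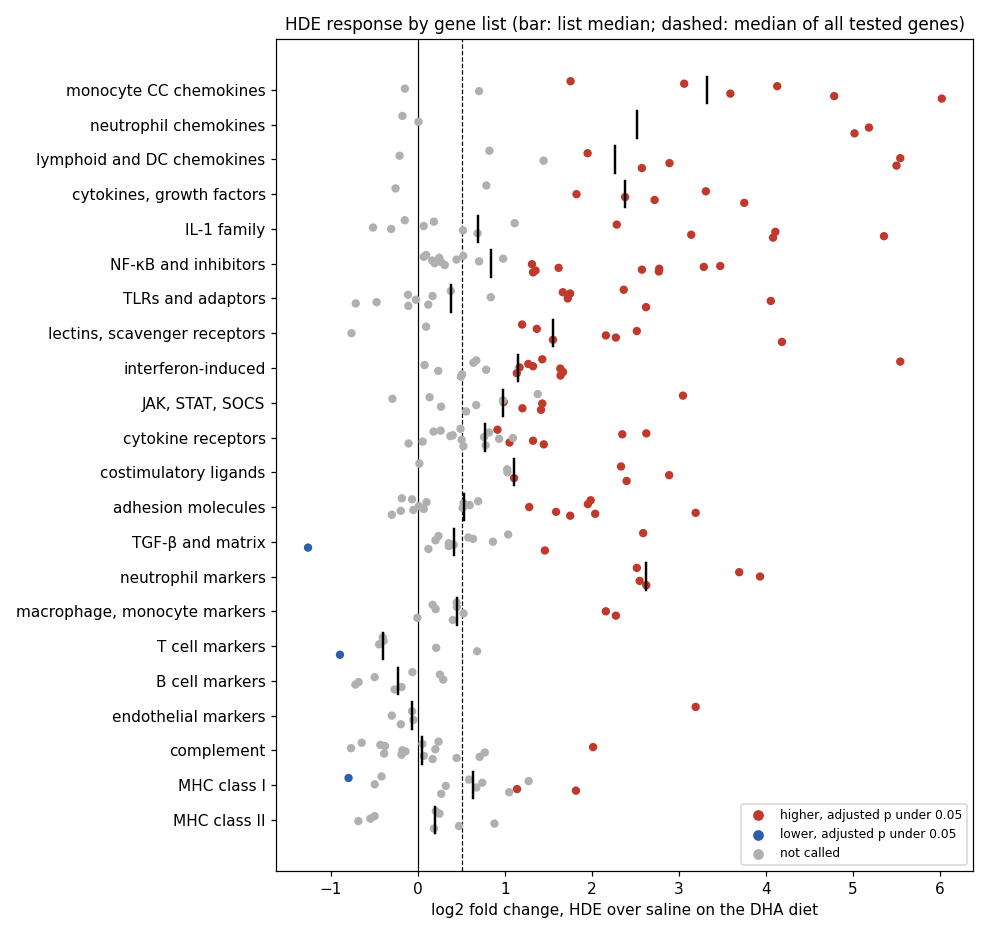
Log2 fold change, HDE over saline on the DHA diet, of every tested gene of 22 lists (points, coloured by call), with the list median as a bar and the median of all tested genes as a dashed line. The medians run from 3.32 (monocyte CC chemokines) to -0.40 (T cell markers), and 8 medians above 0 here (IL-1 family, TLRs, adhesion, TGF-β, macrophage markers, complement, MHC class I and MHC class II) are below 0 under TMM.

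Receptors for cytokines rose in 6 of 20 tested cases, against 30.8% over all genes, with a median of 0.77. Csf3r, the receptor for G-CSF on neutrophils, stood at 214 to 1238 scaled counts (median 395) after HDE, against 83.4, 107 and 82 after saline, and Csf2rb, the shared signalling chain of the GM-CSF, interleukin-3 and interleukin-5 receptors, at 477 to 1857 scaled counts (median 1007) after HDE, against 209.7, 224 and 138 after saline. They rose by 2.62 and 2.35, the other 4 being Il4ra, Il10ra, Il6st and Ifngr2. In the TNF superfamily 4 of 10 rose, against the same 30.8%. The first was Tnfrsf1b, the second TNF receptor, which stood at 522 to 1987 scaled counts (median 988) after HDE, against 229, 250.5 and 133 after saline and rose by 2.45. Socs3, the feedback inhibitor of interleukin-6 and G-CSF signalling, stood at 409 to 2110 scaled counts (median 1302) after HDE, against 129, 248 and 39 after saline. With a log2 change of 3.05 (standard error 0.66, adjusted p = 0.00226) it led the JAK-STAT list. In this list 5 of 12 rose (Jak2, Jak3, Stat2, Stat3 and Socs3), against 30.8% over all genes, 0 fell and the median was 0.98. Stat5b stood at 192 to 415 scaled counts (median 285) after HDE, against 384, 400.4 and 269 after saline, and did not pass by edgeR with the housekeeping genes, but was lower under TMM (-0.90) and by DESeq2 with its own size factors (-0.85).

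Genes induced by interferon rose in 9 of 16 cases with a median of 1.15, Cxcl10 among them. Stat2, a subunit of the interferon-activated factor ISGF3, stood at 159 to 382 scaled counts (median 274) after HDE, against 128, 94.5 and 95.5 after saline. Irf1, a transcription factor of the interferon-γ response, stood at 1507 to 6431 scaled counts (median 1760) after HDE, against 981, 881 and 848 after saline. They rose by 1.43 and 1.64, and all HDE mice were above the saline mice in both. Ifi204, a DNA sensor of the interferon-inducible p200 family, was at 32.9 to 191 scaled counts (median 116) after HDE, against 29.4, 51.3 and 24.3 after saline, with overlap, and rose by 1.64. With TMM neither Stat2 nor Ifi204 passed, and 4 genes of the list remained higher. The ligands of T cell costimulation rose in 4 of 7 cases, with a median of 1.10. Cxcl10, Irf7 and Ifi204 of the first list and Cd80 and Cd86 of the second had saline means under 82. They were tested because of their HDE counts. Cd83, a marker of mature dendritic cells, stood at 669.7 to 1944 scaled counts (median 944) after HDE, against 149.6, 152 and 151 after saline, a log2 change of 2.89 (standard error 0.45, adjusted p = 2.87e-04) over saline values that differed by under 3 counts. Cd80, a ligand of CD28, rose by 2.40 and Cd274, the inhibitory ligand PD-L1, by 2.33. Of the 8 tested inhibitory receptors of leukocytes 3 were higher, against 30.8% over all genes. These were Cd274, Lilrb4 (2.29) and Lilrb3 (1.56), and the median of the list was 0.59 (-0.03 under TMM).

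The adhesion molecules Sele and Vcam1 of activated endothelium rose. Sele, which encodes E-selectin, on which neutrophils roll, stood at 81.7 to 325 scaled counts (median 138) after HDE, against 17.2, 32.9 and 9.15 after saline. Vcam1, which binds the integrin VLA-4 of monocytes and lymphocytes, stood at 212 to 752 scaled counts (median 511) after HDE, against 135, 160.2 and 72 after saline. Sele rose by 3.19 and Vcam1 by 2.04, with no overlap in either, though for Sele 1 saline mouse was over the lane background. Itgam, the CD11b chain of neutrophils and monocytes, rose by 1.95 and Cd44, a receptor for hyaluronan, by 1.98. In all, 7 of 19 adhesion genes were higher, against 30.8% over all genes, 0 lower and the median was 0.52 (-0.10 under TMM). Sele and Itgam had saline means under 82 and were tested because of their HDE counts. Pecam1, Cdh5, Icam2 and Cd34, the other 4 endothelial markers tested beside Sele, lay between -0.30 and -0.05 and did not pass by edgeR with the housekeeping genes. Of the 5 endothelial markers 2 were lower under TMM and 3 by DESeq2 with its own size factors.

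Plaur, the receptor for urokinase on myeloid cells, stood at 1307 to 7755 scaled counts (median 3890) after HDE, against 701, 782 and 346 after saline, and rose by 2.59. It stands in the list of TGF-β and matrix genes, of which 2 of 13 rose (with Tgfb1, at 1.46), 1 fell and the median was 0.41 (-0.18 under TMM). Among genes of lipid mediators and nuclear receptors 3 of 8 rose, against 30.8% over all genes, and the median was 0.61 (-0.12 under TMM). Ptafr, the receptor for platelet-activating factor, a phospholipid mediator, stood at 428 to 3081 scaled counts (median 1580) after HDE, against 96.9, 125 and 58.1 after saline. It rose 16.4-fold, by 4.03 (standard error 0.66, adjusted p = 3.66e-04) on the log2 scale. Ptgs2, the inducible cyclooxygenase COX-2, stood at 224 to 889 scaled counts (median 407) after HDE, against 191, 228 and 179.8 after saline, with 1 saline mouse above the lowest HDE mouse. It rose by 1.32 (standard error 0.44, adjusted p = 0.0332), and did not pass under TMM or without any 1 of the 3 saline mice, nor under TMM did Fkbp5, a glucocorticoid-induced cochaperone, which rose by 1.95 here.

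Both genes of calprotectin, an abundant cytosolic protein of neutrophils, and genes of the phagocyte oxidase rose. S100a8 stood at 2785 to 37450 scaled counts (median 6221) after HDE, against 785, 708 and 999 after saline, and S100a9, which encodes the partner subunit of calprotectin, at 2091 to 20970 scaled counts (median 4301) after HDE, against 557, 429 and 756 after saline. In both, all HDE mice lay above the saline mice but spread over more than 10-fold, and the log2 fold change was 3.93 (standard error 0.81, adjusted p = 0.00164) for S100a8 and 3.69 (standard error 0.73, adjusted p = 0.00128) for S100a9. Cybb, the catalytic subunit of the phagocyte NADPH oxidase, was at 768 to 1391 scaled counts (median 984) after HDE, against 379, 409 and 369 after saline, and rose by 1.40. Ncf4, a cytosolic subunit of the same enzyme, rose by 1.97. The 5 tested neutrophil markers (Csf3r, Cxcr2, S100a8, S100a9, Trem1) were all higher, and their summed scaled counts were 5324 to 60570 after HDE, against 1368 to 1913 after saline. Cxcr2 and Trem1 had saline means under 82 and were tested because of their HDE counts. Camp, a granule protein of immature neutrophils, was over background in 1 of 7 HDE mice and in 0 of 3 saline mice. In whole lung a change in the number of cells of a type and a change in the RNA of each cell cannot be told apart, and the part of the neutrophils in the other rises was not tested.

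With the housekeeping scaling 5 genes were lower, and 62 were under TMM and 72 with the size factors of DESeq2. Fcgrt, the neonatal Fc receptor that recycles IgG and albumin, stood at 72.3 to 273 scaled counts (median 167) after HDE, against 376, 369.6 and 341 after saline, and Nox4, an NADPH oxidase of stroma and endothelium that makes hydrogen peroxide, at 140.1 to 533 scaled counts (median 296) after HDE, against 745, 614 and 925 after saline. All 7 HDE mice lay below all 3 saline mice in both, and they fell by 1.11 for Fcgrt (adjusted p = 0.0273) and by 1.24 for Nox4 (adjusted p = 0.0293) on the log2 scale. Cd2, an adhesion receptor of T and NK cells, stood at 150.4 to 264 scaled counts (median 190.5) after HDE, against 378, 302 and 416 after saline. Mr1, which presents vitamin metabolites to MAIT cells, stood at 107 to 202 scaled counts (median 164) after HDE, against 291, 294 and 262 after saline. The groups did not overlap in these either, with a log2 change of -0.90 (standard error 0.30, adjusted p = 0.0312) for Cd2 and of -0.80 (standard error 0.29, adjusted p = 0.0432) for Mr1. Tgfb3, a TGF-β isoform of stroma, was the fifth, at 88.1 to 208 scaled counts (median 137) after HDE, against 251, 671 and 133 after saline. A single saline mouse at 671 carried its log2 change of -1.27 (standard error 0.41, adjusted p = 0.0293), which was -0.40 without that mouse and then not called. Without saline replicate 1, and without saline replicate 3, Tgfb3 was the single lower gene called, and Fcgrt, Nox4, Cd2 and Mr1 were not. The calls of Fcgrt and Mr1 were lost without any 1 of the 3 saline mice. The next genes by p, Dpp4 at -0.84, Cd79b at -0.68, Ms4a1 at -0.72 and Hc, complement C5, at -0.77, did not pass here and passed under TMM.

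Other families held few calls or none with the housekeeping scaling. Under TMM complement had 4 lower and 1 higher of 17 tested genes, MHC class I 3 and 1 of 12, and cell survival 3 and 1 of 13. DESeq2 with its own size factors called 4, 3 and 3 lower in the same lists. Complement rose in 1 of 17 tested genes, Cfb, factor B of the alternative pathway, which stood at 739.9 to 2351 scaled counts (median 1471) after HDE, against 176, 717 and 136 after saline, and the median of the list was 0.05 (-0.55 under TMM). Its lowest HDE mouse was just above the saline mouse at 717, and its log2 fold change was 2.01 (standard error 0.55, adjusted p = 0.0111). The call of Cfb was lost without saline replicate 1 or 3 and in each run alone, and its log2 change ran from 1.62 to 3.14 with 1 mouse left out. In the MHC class I list 2 of 12 genes rose, H2-Q10 and Tap1, and Mr1 fell, with a median of 0.63 (-0.02 under TMM). Probes of H2-Q10, as those of Lilrb3 and Lilrb4, have close relatives in the genome, whose part in their counts was not tested. In the MHC class II list edgeR called 0 of 8 genes in either direction, with 1 higher and 0 lower at an unadjusted p up to 0.05. DESeq2 with the 4 housekeeping genes called 1 higher, DESeq2 with its own size factors 3 lower and limma 0, and the median was 0.19 (-0.43 under TMM). Genes of cell survival and apoptosis rose in 2 of 13 cases with a median of 0.20 (-0.39 under TMM). Bid of this list and H2-Q10 had saline means under 82 and were tested because of their HDE counts. Of the Fc receptors 3 of 6 rose and 1 fell. Pigr, the epithelial transporter of IgA, stood at 1145 to 2811 scaled counts (median 1618) after HDE, against 482, 912 and 251 after saline, and rose by 1.83 (standard error 0.45, adjusted p = 0.00575), the other 2 being Fcer1g and Fcgr2b.

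Markers of resident and lymphoid cells moved less than the neutrophil markers. Of 9 tested macrophage and monocyte markers 2 rose, Marco and Msr1, and the median was 0.44 (-0.27 under TMM), with summed scaled counts of 2323 to 5086 after HDE and 2028 to 2450 after saline. Csf1r, the receptor that defines these cells, stood at 429 to 845 after HDE and at 466 to 487 after saline. Only 6 of the 21 genes listed as T cell markers reached the count minimum, of which Cd2 fell and 0 rose by edgeR with the housekeeping genes. Under TMM 3 of the 6 were lower, as were 3 by DESeq2 with its own size factors. The 6 included Cd3eap (log2 fold change 0.68), which is not specific to T cells despite its name. The median of the 6 was -0.40, with summed counts over the 21 of 990.5 to 1914 after HDE and 1342 to 2035 after saline. Rag1, the recombinase of thymocytes, was over background in 1 of 7 HDE mice and 0 of 3 saline mice. Of 8 tested genes listed as B cell markers, with the broadly expressed Cd24a and Cd81 among them, edgeR called 0, with 2 lower at an unadjusted p up to 0.05. DESeq2 called 1 lower with the housekeeping genes and 6 lower with its own size factors, and limma 0. Of 7 markers of epithelium and stroma Pigr rose and Nox4 fell, and the median was 0.01 (-0.75 under TMM). Under TMM 3 of the 7 were lower and 1 higher.

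**Figure D4:**
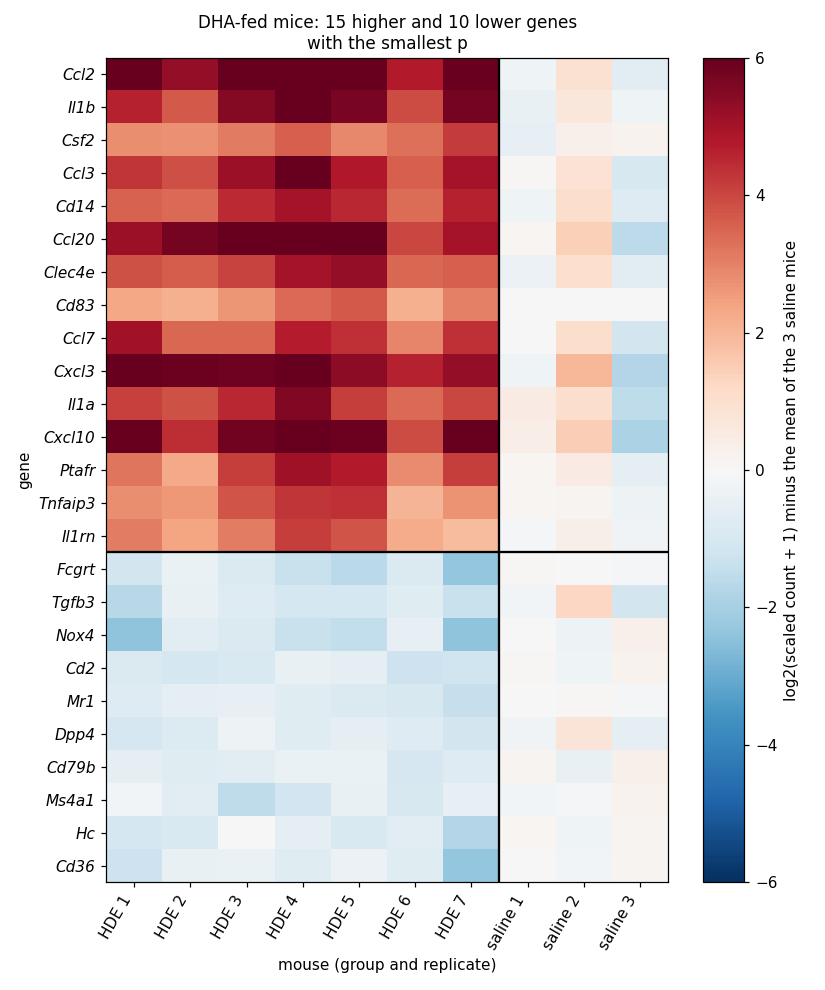
Difference of log2(scaled count + 1) from the mean of the 3 saline mice, for each of the 10 mice on the DHA diet (HDE left of the line, saline right) and for 25 genes, the 15 higher and 10 lower ones that ranked first by p. Replicates 4 and 5 of the HDE mice are darkest over the higher genes, replicates 2 and 6 palest, and in the Tgfb3 row the saline mice differ as much from each other as from the HDE mice.

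The 7 HDE mice differed from each other in the size of the response. Over the 108 higher genes the median difference from the saline mean, on the log2 scale, was 1.84, 1.38, 2.05, 2.50, 2.62, 1.04 and 1.85 in HDE replicates 1 to 7, against 0.10, 0.33 and -0.45 in the 3 saline mice. Replicate 4 was the highest HDE mouse in 57 of the 108 genes and replicate 5 in 37, and replicate 6 was the lowest in 61 and replicate 2 in 25. The coefficient of variation between HDE mice had a median of 49.7% over these genes (19.7% to 99.5%). The geometric mean of the raw counts of the 4 scaling genes was 742.8 in replicate 4, the lowest of the 10 mice, and 6046 in replicate 6, while it was 3949 in replicate 5 and 6745 in saline replicate 3, the lowest saline mouse over these genes. The part of the scaling in the order of the mice was not tested. With HDE replicate 4 and saline replicate 3 both left out, a choice made after seeing the data, 53 genes were higher and 2 lower.

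The mice on the control diet, 6 after HDE and 4 after saline, allow the same contrast to be set beside that of the DHA diet, and no mouse is shared between the 2 comparisons. On the control diet 52 of 354 tested genes were higher (14.7%) and 3 lower (0.847%) after HDE. Of the 108 genes that were higher on the DHA diet, 104 were tested on the control diet and all 104 had a log2 fold change above 0 there, 50 of them called. The median over all genes tested on the control diet was itself 0.477 (0.033 under TMM), so a value above 0 was common there. Of the 5 lower genes 5 were below 0 on the control diet and 2, Fcgrt and Nox4, were called. The count on the control diet turned on single mice of both groups. The library labelled as replicate 6 of the HDE mice on the control diet had 25.9 scaled counts of Ccl2, below the saline mice of its diet at 36.1 to 143, and without it 150 genes were higher and 6 lower. Leaving out any 1 of the 4 saline mice on the control diet gave 0 calls, and limma also called 0, with 86 higher and 11 lower genes at an unadjusted p up to 0.05.

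Whether HDE acted differently on the 2 diets was tested by the interaction of diet and exposure over the 20 mice. By edgeR 0 of 358 genes passed in either direction (0%), and 9 reached an unadjusted p up to 0.05 (2.51%), 1 higher and 8 lower. DESeq2 and limma also called 0 after adjustment, with 2 higher and 8 lower genes by DESeq2 with its own size factors, 1 and 8 with the housekeeping genes and 1 and 0 by limma at the unadjusted level. The 1 higher gene was Marco, with an HDE response of 2.27 on the DHA diet (standard error 0.46) and 0.91 on the control diet (standard error 0.44), a difference of 1.36 on the log2 scale (adjusted p = 0.997 by edgeR). The scaled count of Marco averaged 619 ± 332 after HDE and 128 ± 33.2 after saline on the DHA diet (SD, n = 7 and n = 3). The 8 lower genes were T cell and thymus genes, Thy1, Cd3d, Rag1 and Lck among them, and 1 mouse carried them. Rag1 stood at 5054 scaled counts in replicate 3 of the HDE mice on the control diet, against 4.88 to 50.6 in the HDE mice on the DHA diet, and without that control diet mouse 0 lower genes were left at the unadjusted level.

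Genes that the study named for an effect of the diet were chosen on these same mice, so that their values are a description. Bcl3 differed between the diets by 1.56 in its HDE response (3.28 on the DHA diet and 1.72 on the control diet, standard error of the difference 0.82, adjusted p = 0.997). For Lilrb3 the responses were 1.56 on the DHA diet and 0.84 on the control diet, for Cfb 2.01 and 1.81, and for Pigr 1.83 and 1.63. Itgax had an HDE response of 0.52 on the DHA diet and 0.06 on the control diet, and Tgfbi of 0.35 and -0.02. Itga6 (0.01 and -0.31), Cxcl12 (-0.21 and -0.33) and Stat5b (-0.29 and 0.15) passed on neither diet by edgeR with the housekeeping genes. Under TMM, Cxcl12 and Stat5b were lower on the DHA diet, as given above. No difference between the diets in the HDE response passed the interaction test in these 9 genes. The study compared the diets directly instead, over all mice or over the HDE mice, at an unadjusted p. That contrast was not run here, so the interaction does not decide on the study's diet effects. Of the genes with a strong response, Ccl2 had 6.02 and 4.89, Il1b 5.36 and 4.58, Csf2 3.31 and 2.38 and Cd14 4.06 and 3.86 on the DHA and the control diet. The standard errors of these 4 differences were 0.67 to 1.06, so that a 2-fold difference (1 on the log2 scale) was smaller than 2 standard errors in each. All control diet responses set beside the DHA diet include HDE replicate 6 of the control diet, whose Ccl2 count lay below its saline mice. Over the genes tested for the interaction, the median difference in response, DHA minus control diet, was 0.132 with that mouse and 0.016 without it.

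**Figure D5:**
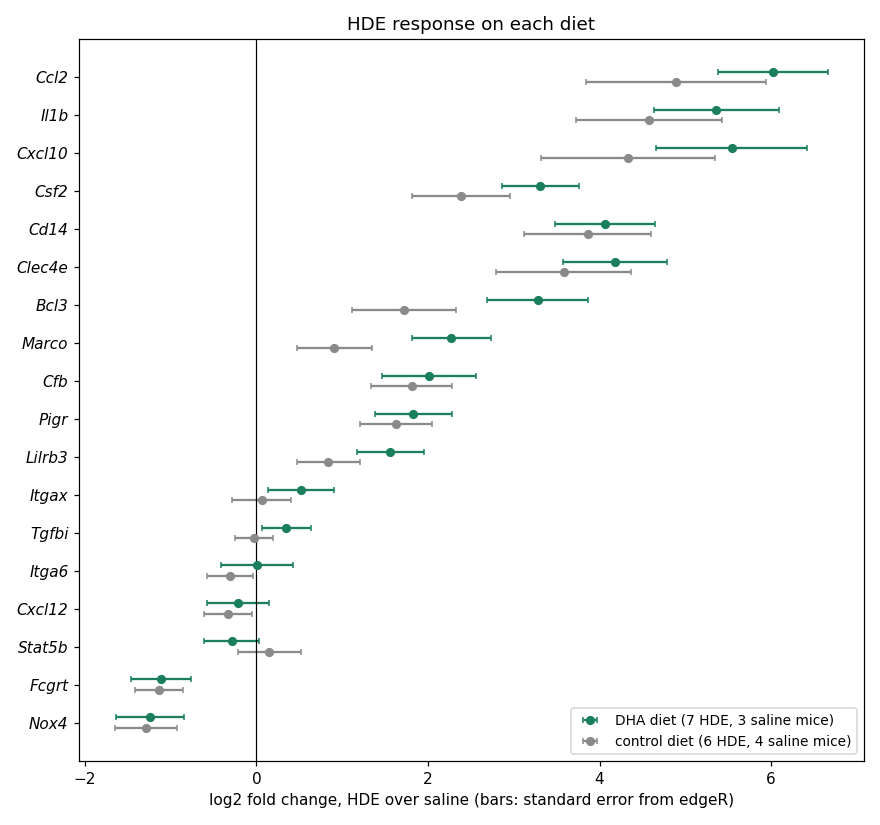
Log2 fold change, HDE over saline, with its standard error from edgeR, for 18 genes on the DHA diet (green, 7 HDE and 3 saline mice) and on the control diet (grey, 6 and 4 mice). The error bars of the 2 diets overlap for all but Marco and Bcl3, whose differences were not called after adjustment. The control diet values include HDE replicate 6 of that diet, with Ccl2 below its saline mice.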

How the data were processed

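Left lung RNA of mice was hybridised by the authors to the NanoString mouse Immunology panel, read on an nCounter Sprint profiler and exported from nSolver. The authors deposited raw counts per probe and lane with no background subtracted, and a second table of normalized values, used here as a signal, which equalled the raw counts after scaling by Oaz1, Ppia, Rpl19 and Eef1g times 1.18 (largest relative deviation 9.44e-05 over raw counts of at least 100). A column of the deposited tables that holds percent values was not used. Groups came from the sample names. No 2 lanes matched within counting noise (lowest chi-square per degree of freedom 7.7 over 190 pairs).

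Raw counts were scaled by the same 4 genes (each lane to the geometric mean of all 20 lanes), a gene was kept where the scaled counts of the mice compared averaged 82 or more, and edgeR 4.0.16 (quasi-likelihood test, R 4.3.3) was run with Benjamini-Hochberg adjustment over all genes kept (threshold 0.05). The interaction came from a model of the 4 groups over 20 mice. Each lane was taken as 1 mouse. limma 3.58.1 and DESeq2 1.42.0, other scalings and filters, the run as a block, each run alone and each mouse left out were alternatives. The pipeline was checked on simulated counts with the same spread for all genes, known lane factors and changes in both directions. As the real data differ in these points, that check gives no error rate for the calls reported here. The members and gene lists were chosen with earlier results of these data known. Named genes were the first 15 higher and 10 lower by p, those the study names, the first 3 of each list by p and the first 4 in each direction for the interaction. A further 16 genes of the 81 examined in detail (Ccl12, Ccl19, Ccl4, Ccl9, Cd44, Csf1, Cxcl13, Cybb, Ifi204, Il18rap, Il1r2, Irf1, Lif, Myd88, Nfkbia and Relb), and others given as members of a list, were named after their values were seen. Of the 547 endogenous names 531 matched a RefSeq symbol and the rest were used as deposited.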

Additional observations from a re-analysis of the deposited data

Results flagged for a closer look

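Of 81 genes examined in the 7 HDE mice on the DHA diet, 5 had 1 mouse that stood far from the other 6, where chance flags about 1 in 20. In HDE replicate 4 Ccl3 stood at 4566 scaled counts, Il1a at 2442, Lif at 776.6 and Itgax at 1044, each the highest of its group. In HDE replicate 5 Irf1 stood at 6431. Replicate 4 had the lowest housekeeping counts of the 10 mice (742.8), and their part in these values was not tested. Without replicate 4, the log2 fold change of Ccl3, Il1a and Lif stayed called.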

How the results depend on the processing

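For the 81 genes and the interaction, 2256 alternative values kept direction and call, 138 kept direction and lost the call, 26 gained it and 27 changed sign. Of the 71 genes called on the DHA diet 27 stayed called throughout, 24 were lost only in run 2 alone and 20 elsewhere (18 without saline replicate 3, 15 without saline replicate 1, 6 under TMM). On the DHA diet, against 108 higher and 5 lower genes in the report, lower genes numbered 62 under TMM, 72 by DESeq2 with its own size factors, 10 with 14 housekeeping probes and 8 with all 20 mice in 1 model. With 82 counts required in every mouse 67 of 220 genes were higher. Run 1 alone gave 2 lower genes, run 2 alone 30 higher and 1 lower, and HDE replicate 4 and saline replicate 3 left out together (chosen after seeing the data) 53 and 2. Leaving out single mice gave 57 to 128 higher and 1 to 5 lower genes. On the control diet, against 52 and 3, DESeq2 gave 97 higher and 7 lower genes with the housekeeping genes and 24 lower with its own size factors, limma 0 and 0, the filter of 82 in every mouse 24 higher, the run block 6 lower, run 1 alone 95 and 6, run 2 alone 0 and 0 (45 and 1 unadjusted), all 20 mice in 1 model 85 higher, and HDE replicates 3 and 6 left out together 155 and 7. Single mice left out gave 0 to 150 higher and 0 to 6 lower. The interaction stayed at 0 and 0 in every alternative. The cause of these shifts was not tested, beyond fewer genes or mice where a setting leaves them out.

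Signs turned only in differences that were not called, apart from that of Tgfb3. On the DHA diet Itgax was -0.10 under TMM and -0.06 by DESeq2 with its own size factors, Tgfbi -0.28 and -0.24, Itga6 -0.75 and -0.70, -0.16 with 14 housekeeping probes, -0.10 by limma, -0.27 in run 2 alone and -0.21 to 0.18 without 1 mouse, and Tgfb3 0.07 in run 2 alone. In the interaction Itga6 was -0.01 under TMM, Cxcl12 -0.11 under TMM, -0.07 by DESeq2 -0.03 in run 2 alone and 0.00 to 0.31 without 1 mouse, Pigr -0.61 in run 1 alone and -0.15 without control diet HDE replicates 3 and 6 together and -0.14 to 0.79 without 1 mouse, and Cfb -0.12 without those mice together and -0.25 to 1.33 without 1 mouse.

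No paired analysis was possible because the labels give no shared replicate numbers. Precision is limited by the 3 saline mice and by the scaling, and for low genes by counts near the lane background of 16.6 to 40.9 raw counts.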

Other observations

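Of the 196 genes under the count minimum, 1 had all 7 HDE mice over the lane background and above all 3 saline mice. Mapk11, which encodes the p38β kinase, stood at 56.4 to 137 scaled counts (median 80.2) after HDE, against 10.7, 46.6 and 53.4 after saline, with 2 of the saline mice over background. It was singled out after its values were seen and was not tested. In 2 further genes under the minimum all 3 saline mice were over the lane background and all HDE mice lay below them.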
